A study of Mus musculus with 367 samples.

Results

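The RGS genes (regulators of G-protein signalling) were described in single cells of healing mouse skin. The part covers 9 listed genes, Rgs1, Rgs2, Rgs3, Rgs4, Rgs5, Rgs10, Rgs12, Rgs16 and Rgs19, of 50600 gene identifiers in the matrices, and all 9 were found by symbol. Full-length RNA was measured in single cells on a microfluidic C1 chip from wounds of Sm22-Cre;tdTomato mice of mixed background, 3 to 8 weeks old, with square excisions of 1.5 cm on the back. Cells sorted as viable and high for tdTomato were captured at post-wounding day 12 (3 captures, 159 cells), day 15 (2 captures, 117 cells) and day 21 (2 captures, 91 cells), and every group carried the same Cre and reporter and no other treatment. The Cre is driven by the promoter of Sm22 (Tagln), a smooth muscle gene that other contractile cells also use, so the sort sets which cells were seen. The wound tissue of 2 to 3 mice was pooled, and whether captures came from different pools is not stated, so the spread between captures may in part be technical.

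RGS proteins speed up the hydrolysis of GTP by G alpha subunits and so shorten the signal of receptors such as those for endothelin, angiotensin, chemokines and lipids. Rgs1, Rgs2, Rgs3, Rgs4, Rgs5 and Rgs16 belong to the R4 subfamily. Apart from Rgs3, these are mostly small proteins made of little more than the RGS domain. Rgs10 and Rgs12 belong to the R12 subfamily and Rgs19 to the RZ subfamily. Rgs5 is widely used as a marker of pericytes, the mural cells of small vessels. Rgs1 is known from leukocytes, where it dampens chemokine receptor signals, and Rgs2 is known as a regulator that prefers Gq and affects vascular tone.

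After the limits on cells, 292 cells remained, with a median of 1462540 estimated fragments per cell overall and of 957488 to 2363340 by capture. Cell kinds were set by marker levels in FPKM (fragments scaled by gene length and library size), with no RGS gene in the rule. Matrix cells (194) had Col1a1 of at least 1000 and Tyrobp under 50, mural cells (63) had a sum of Higd1b, Cox4i2 and Ndufa4l2 of at least 100 and Tyrobp under 50 and were taken first, and myeloid cells (26) had Tyrobp of at least 500. The remaining 9 cells had no kind. Per capture there were 16 to 50 matrix cells, 0 to 20 mural cells and 0 to 11 myeloid cells. The 9 myeloid markers summed to 20909 to 35309 FPKM in the captures with at least 3 myeloid cells and to at most 60.2 in the other kinds. The 9 mural markers, of which the rule used 3, summed to 441 to 3335 FPKM in mural and at most 32.8 in matrix cells. In myeloid cells they summed to 0.332 to 130 FPKM, where Cox4i2, a gene of the rule, had a highest capture mean of 130 FPKM. The 6 fibroblast markers were not confined to matrix cells, with 4639 to 37599 FPKM in mural and 91.8 to 15124 FPKM in myeloid cells. The T and B cell markers summed to 1.895 to 335 FPKM in myeloid cells, with Cd79b above 0 in 6, Ms4a1 in 10 and Cd3d in 1 of 26 cells and Cd3e, Cd2 and Cd79a at 0, and to at most 1.50 in the other kinds. The sums reached 38.7 FPKM for endothelial markers (in mural cells), 11.9 for neutrophil and mast cell markers and 76 for Schwann cell and keratinocyte markers. Smooth muscle markers summed to 511 to 3963 FPKM in mural, 171 to 1428 in matrix and 0.380 to 345 in myeloid cells. The part of these other RNAs in the RGS values was not tested.

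In the mouse genome (GRCm38, the same build as mm10), 5 of the 9 genes lie on chromosome 1. Rgs5 (ENSMUSG00000026678, chr1:169655501-169695813, plus strand) and Rgs4 (ENSMUSG00000038530, chr1:169741477-169747642, minus strand) are neighbours that point towards each other, 45.7 kb apart. Rgs2 (ENSMUSG00000026360, chr1:143999338-144004161, minus strand) lies 238 kb from Rgs1 (ENSMUSG00000026358, chr1:144242296-144249242, minus strand), and Rgs16 (ENSMUSG00000026475, chr1:153740349-153745468, plus strand) is further along. Rgs19 (ENSMUSG00000002458) is at chr2:181688419-181693977 on the minus strand, Rgs3 (ENSMUSG00000059810) at chr4:62559847-62704001 on the plus strand, Rgs12 (ENSMUSG00000029101) at chr5:34949445-35039644 on the plus strand and Rgs10 (ENSMUSG00000030844) at chr7:128373621-128418758 on the minus strand. The library kit does not mark strand, so reads of Rgs3, Rgs12 and Rgs16 cannot be told apart from those of the antisense genes annotated within their bounds (Gm11209, Gm43791 and Gm28513). On the same strand, the processed transcript Gm15503 overlaps Rgs10 and the microRNA gene Mir3097 overlaps Rgs12.

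The 250 bases before the start that RefSeq annotates are printed for Rgs5, Rgs4 and Rgs16, the R4 members whose mean was highest in mural cells, and for Rgs10, the member most often at 1 FPKM or more in matrix and myeloid cells, to show how unlike these promoters are (RefSeq, GRCm38.p6; 8 of the 9 members had an entry). Capitals mark matches on either strand to the TATA box TATAAA and to the GC box GGGCGG, of which 2 overlap in Rgs16.
Rgs5, chr1:169655251-169655500, plus strand: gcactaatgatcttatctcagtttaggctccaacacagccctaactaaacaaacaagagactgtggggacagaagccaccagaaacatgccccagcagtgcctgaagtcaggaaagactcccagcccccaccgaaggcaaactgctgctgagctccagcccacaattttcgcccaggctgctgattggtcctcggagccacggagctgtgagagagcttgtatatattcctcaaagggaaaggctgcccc
Rgs4, chr1:169747643-169747892, minus strand: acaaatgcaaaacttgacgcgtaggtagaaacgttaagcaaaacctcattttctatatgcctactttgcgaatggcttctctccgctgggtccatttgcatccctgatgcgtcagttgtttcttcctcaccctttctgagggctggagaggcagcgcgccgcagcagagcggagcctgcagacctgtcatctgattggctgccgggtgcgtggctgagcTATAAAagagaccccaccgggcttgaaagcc
Rgs16, chr1:153740103-153740352, plus strand: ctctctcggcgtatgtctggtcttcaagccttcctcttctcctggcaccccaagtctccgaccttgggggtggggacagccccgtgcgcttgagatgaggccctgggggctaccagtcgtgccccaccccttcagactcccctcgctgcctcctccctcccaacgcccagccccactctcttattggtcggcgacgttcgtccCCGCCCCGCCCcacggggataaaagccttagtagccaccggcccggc
Rgs10, chr7:128418173-128418422, minus strand: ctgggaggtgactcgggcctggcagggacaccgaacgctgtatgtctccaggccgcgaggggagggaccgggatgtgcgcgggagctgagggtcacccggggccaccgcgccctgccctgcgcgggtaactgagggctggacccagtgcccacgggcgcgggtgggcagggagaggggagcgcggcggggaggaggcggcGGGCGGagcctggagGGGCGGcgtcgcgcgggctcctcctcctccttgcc
The TATA box was found in Rgs4, and GC boxes in Rgs16 and Rgs10, 2 in each. Of 32536 promoter windows of this length, 12.3% held the TATA box and 33% the GC box. The CArG box, known from smooth muscle genes, was in 1.48% of all windows and in none of these 4. The Rgs5 window held 4 CpG dinucleotides, the Rgs4 window 13, the Rgs16 window 17 and the Rgs10 window 27, beside a median of 6 over all windows. The pair of neighbours had the same GC content of 53.6% but differed in these features.

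Rgs5 was the dominant member in mural cells. Its mean in mural cells was 6520, 7149 and 6592 FPKM in the captures of day 12, 7076 in capture 1 of day 15, and 5171 and 140 in the captures of day 21, while capture 2 of day 15 held no mural cell. The mean of these 6 captures was 5441 ± 2693 FPKM (SD), which ranked Rgs5 as number 13 among all genes in mural cells. It was above 0 in 60 of 63 mural cells (95.2%, exact 95% interval 86.7 to 99.0), with a median of 5478 and a highest value of 19993 FPKM. Among the members it had the highest value in 53 of the 63 cells. Its levels fell into separate ranges, since 54 of the 63 cells had at least 100 FPKM and the other 9 had less than 10.

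The low cells had fewer genes of the rule above 0. In the 37 mural cells with all of Higd1b, Cox4i2 and Ndufa4l2 above 0, Rgs5 ranged from 142 to 19993 FPKM with a median of 8549. In the 14 cells with 2 of these genes it ranged from 201 to 19622 with a median of 3347. In the 12 cells with only 1 of them the median was 2.41 FPKM, and 3 of these cells had at least 1000. So all 51 cells with 2 or 3 of the genes had at least 100 FPKM of Rgs5, beside 3 of 12 with 1. The cells with 1 gene had median Col1a1 of 5226 and Dcn of 4751 FPKM, beside 731 and 129 in the other 51, and Notch3, a receptor of mural cells, was above 0 in 4 of 12 beside 48 of 51. Of the 3 mural cells of capture 2 of day 21, 2 were of this type, and the third had 420 FPKM of Rgs5. The mean of that capture stands apart for Rgs5, and it was the lowest of the mural captures for Rgs4, Rgs16, Rgs2, Rgs3 and Rgs10 as well. For Rgs12 it was the highest (38.5 FPKM, from 1 cell), and for Rgs19 it lay among the others (49.1 FPKM).

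**Figure D1:**
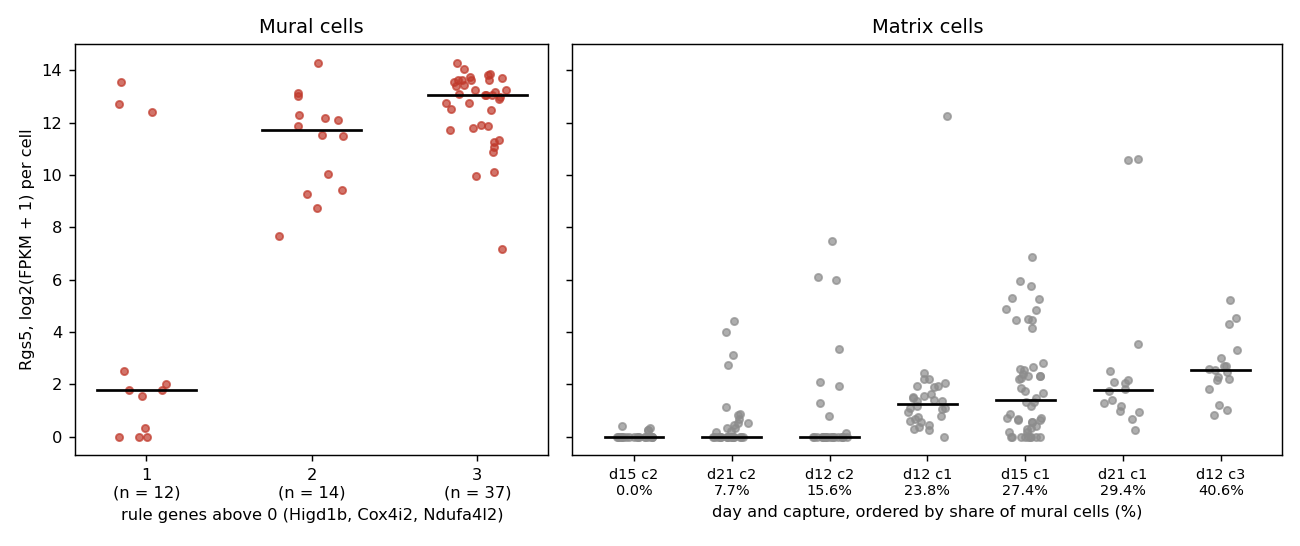
Rgs5 in single cells as log2(FPKM + 1), with horizontal lines at medians. Left, the 63 mural cells by how many of the 3 genes of the rule were above 0, where the cells with 1 gene sit mostly near 0 (median 2.41 FPKM) and those with 3 near 8549 FPKM. Right, the 194 matrix cells by day (d) and capture (c), ordered by the percent of mural cells in the capture, where most cells lie under 10 FPKM.

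Outside mural cells Rgs5 was often detected but at low levels. It was above 0 in 131 of 194 matrix cells (67.5%) and 17 of 26 myeloid cells (65.4%), with a median of 2.07 and 2.60 FPKM among the cells above 0. At a limit of 1 FPKM the shares were 44.8% of matrix, 46.2% of myeloid and 93.7% of mural cells. At 100 FPKM they were 5 of 194, 0 of 26 and 54 of 63. The share of matrix cells above 0 differed between captures, from 18.2% (4 of 22) in capture 2 of day 15, which held no mural cell, to 100% in capture 3 of day 12 and capture 1 of day 21, with 40.6% and 29.4% mural cells. The values were 33.3% and 46.9% in capture 2 of days 12 and 21, with 15.6% and 7.69% mural cells, and 96.7% and 82% in capture 1 of days 12 and 15, with 23.8% and 27.4%. These shares of Rgs5 above 0 are therefore not read as expression. The part of free RNA from mural cells in them was not tested. Shares of the other members above 0 are given as counts under the same limit. The mean of matrix cells was 163 and 194 FPKM in capture 1 of days 12 and 21, which held the 3 matrix cells above 1000 FPKM, and at most 12 FPKM in the other captures. The 5 matrix cells with at least 100 FPKM had 4851, 1572, 1499, 176 and 115, and 4 of them had 4 or 5 of the 9 mural markers above 0. Without a kind, 3 of the 9 cells had 3641, 6288 and 5056 FPKM of Rgs5.

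Rgs5 passed the test between mural and matrix cells, and no other member did. On the log2(mean FPKM + 1) scale it was higher in mural cells by 7.44 ± 0.96 (SE; adjusted p = 0.00351, limma with capture as a block over 17 profiles of at least 3 cells). Of the 14042 genes tested, 0.278% were higher and 0.135% lower in mural cells, beside 1 and 0 of the 9 members. The median difference over all genes was -0.26 and that of the members 0.23. The call was lost without capture 2 of day 12 (7.08, adjusted p = 0.0503) and with no filter on low values (7.44, adjusted p = 0.0926), both by limma, and the difference was 7.90 without capture 2 of day 21. With mural cells limited to those with 2 or 3 of the rule's genes, a choice made after the values were seen, it was 8.33 (limma, adjusted p = 0.000795). Against myeloid cells the difference was 7.71 ± 1.21 (limma, adjusted p = 0.00135).

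**Figure D2:**
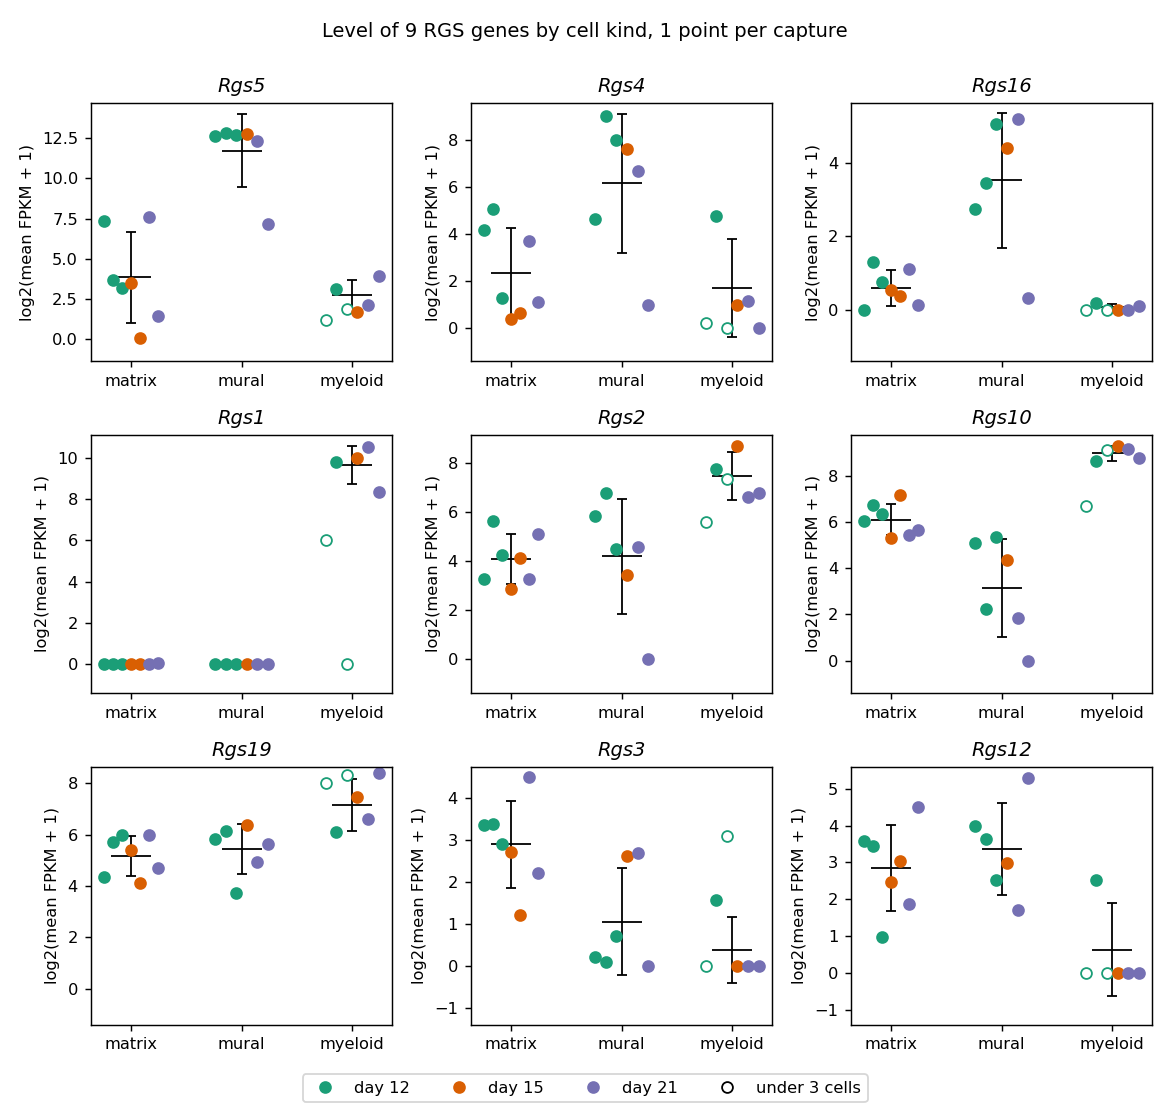
Level of the 9 RGS genes in each capture and cell kind, as log2(mean FPKM + 1) over the cells. Points are captures colored by day, open where under 3 cells were available, and lines are the mean ± SD of the filled points, with Rgs5 of capture 2 of day 21 (140 FPKM) far under the other mural captures.

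Rgs4 and Rgs16, R4 members like Rgs5, were also at their highest in mural cells. The mean of Rgs4 was 23.6, 522 and 253 FPKM in the mural cells of day 12, 194 in those of day 15 and 99.8 and 0.983 in those of day 21. In matrix cells the means ranged from 0.298 to 32 with a median of 1.43, so that the groups overlapped through capture 1 of day 12 and capture 2 of day 21. Rgs4 was above 0 in 42 of 63 mural, 42 of 194 matrix and 9 of 26 myeloid cells, and at 10 FPKM or more in 32, 10 and 1. The difference from matrix cells was 3.60 ± 0.93 and did not pass (limma, adjusted p = 0.120). With a capture left out it passed in 1 of 7 fits, that without capture 2 of day 21 (4.37, limma, adjusted p = 0.0489). The adjusted p of the other fits reached 0.346 (limma). With mural cells limited to those with 2 or 3 of the rule's genes, chosen after the values were seen, the difference was 4.52 (limma, adjusted p = 0.0228). Against myeloid cells it was 4.05 ± 1.18 (limma, adjusted p = 0.0492), a call that was lost without capture 2 or 3 of day 12, either capture of day 15 or capture 1 of day 21 (3.45 to 4.22, adjusted p = 0.0630 to 0.204) and with no filter on low values (4.05, adjusted p = 0.165).

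Rgs16 was lower than Rgs4 in mural cells, with a mean over the 6 captures of 17.1 ± 14.2 FPKM beside 182 ± 193 (SD). Its mural means were 5.68, 9.90 and 31.8 FPKM at day 12, 20.2 at day 15 and 35.1 and 0.240 at day 21, and its matrix means were 0 to 1.45. Apart from capture 2 of day 21, each mural mean was above each matrix mean. It was above 0 in 40 of 63 mural cells (63.5%, exact 95% interval 50.4 to 75.3), 30 of 194 matrix cells (15.5%, 10.7 to 21.3) and 2 of 26 myeloid cells (7.69%, 0.946 to 25.1). The difference between mural and matrix cells was 2.88 ± 0.65 and did not pass (limma, adjusted p = 0.0754). With a capture left out it passed in 1 of 7 fits, that without capture 2 of day 21 (3.46, limma, adjusted p = 0.0190). The adjusted p of the other fits reached 0.215 (limma). With 2 or 3 of the rule's genes, chosen after the values were seen, the difference was 3.59 (limma, adjusted p = 0.00919). Against myeloid cells it was 3.26 ± 0.82 (limma, adjusted p = 0.0255), and this was lost without capture 2 of day 12 (3.20, adjusted p = 0.0902) or capture 1 of day 21 (2.60, adjusted p = 0.150). Rgs16 passed the filter on low values only through its mural captures. Its differences from matrix and from myeloid cells are thus a description, also where a p-value is given. With no filter the call against myeloid cells was lost (3.26, limma, adjusted p = 0.0832).

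These members shared mural cells only in part. At a level of 10 FPKM, all 21 cells with Rgs16 and 31 of the 32 with Rgs4 also had Rgs5, which 54 cells had. Rgs4 and Rgs16 were together in 10 cells. Rgs16 was in 31.2% of the cells with Rgs4, beside 33.3% of all mural cells. Rgs4 was in 47.6% of the cells with Rgs16, beside 50.8% of all mural cells, so this overlap was near the shares over all mural cells. Over the 63 cells, which share captures and depth, Spearman's rho was 0.50 between Rgs5 and Rgs16, 0.09 between Rgs5 and Rgs4 and 0.15 between Rgs4 and Rgs16. In these sparse values the low coefficients are no finding.

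Rgs1 was high in myeloid cells and at or near 0 in the other kinds. Its mean in the captures with at least 3 myeloid cells was 884 FPKM at day 12, 999 at day 15, and 1446 and 320 at day 21, and the 3 myeloid cells of the other day 12 captures gave means of 64.5 and 0. It was above 0 in 20 of 26 myeloid cells (76.9%, exact 95% interval 56.4 to 91.0), with a median of 436 and a highest value of 3611 FPKM. In matrix cells it was above 0 in 4 of 194 at no more than 0.400 FPKM, and in mural cells in 0 of 63, for which a floor of 3 cells allows a share of up to 4.76% and the exact 95% interval reaches 5.69%. The captures with at least 3 myeloid cells did not overlap with those of any other kind. The difference from matrix cells was 9.62 ± 0.63 (limma, adjusted p = 3.9e-07) and that of mural minus myeloid cells was -9.60 ± 0.67 (limma, adjusted p = 1.02e-06). Rgs1 passed the filter on low values (a mean of 1 FPKM over the profiles) only through its myeloid captures, and with no filter the difference from matrix cells passed too (limma, adjusted p = 5.77e-06). Ptprc, the pan-leukocyte phosphatase CD45, was the gene most like Rgs1 over the 17 profiles (Pearson's r = 1.00).

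Rgs10 and Rgs2 were highest in myeloid cells but not limited to them. Rgs10, the R12 member known from microglia and macrophages, had means of 396, 627, 574 and 434 FPKM in captures 2 of day 12, 2 of day 15 and 1 and 2 of day 21. In matrix cells the means were 39 to 140 (median 65.2) and in mural cells 0 to 39.6 (median 11.7). The named myeloid captures, each with at least 3 such cells, lay above these. Captures 1 and 3 of day 12, with 2 and 1 myeloid cells, had means of 101 and 557 FPKM. The first of these lay within the matrix range. It was detected in 23 of 26 myeloid, 101 of 194 matrix and 16 of 63 mural cells. The difference between myeloid and matrix cells was 3.44 ± 0.83 (limma, adjusted p = 0.0144), and without capture 1 of day 21 it was 3.26 and did not pass (limma, adjusted p = 0.0646). Mural minus myeloid cells gave -6.33 ± 0.89 (limma, adjusted p = 0.00049). Mural minus matrix cells gave -2.89 ± 0.70, which did not pass (limma, adjusted p = 0.0996).

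Rgs2 had means of 212, 418, 96.6 and 109 FPKM in the same myeloid captures, 6.26 to 49.1 in matrix and 0 to 109 in mural cells, where capture 2 of day 12 was the highest. The values of these myeloid captures overlapped with the mural but not with the matrix ones. Captures 1 and 3 of day 12, with 2 and 1 myeloid cells, had means of 47.7 and 162 FPKM. The first of these lay within the matrix range. Rgs2 was detected in 22 of 26 myeloid, 58 of 194 matrix and 22 of 63 mural cells, and the highest myeloid cell had 1698 FPKM. The difference between myeloid and matrix cells was 3.26 ± 1.01 (limma, adjusted p = 0.0433). That call was lost when any capture other than capture 2 of day 21 was left out (2.87 to 3.77, limma, adjusted p = 0.0595 to 0.125). Mural minus myeloid cells gave -3.03 ± 1.08 (limma, adjusted p = 0.102).

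Within the 26 myeloid cells, Rgs1, Rgs2 and Rgs10 were at 10 FPKM or more in 18, 18 and 21. All 3 were in 11 cells, 2 of them in 10, 1 in 4 and none in 1. Rgs2 was in 72.2% of the cells with Rgs1, beside 69.2% of all myeloid cells. Rgs10 was in 83.3% of the cells with Rgs1 and 83.3% of those with Rgs2, beside 80.8% of all. These overlaps were near the shares over all myeloid cells. Rgs1 was the highest member in 14 of the 26 cells, Rgs10 in 6 and Rgs19 in 4. Spearman's rho was 0.24 between Rgs1 and Rgs2 and 0.25 between Rgs1 and Rgs10.

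**Figure D3:**
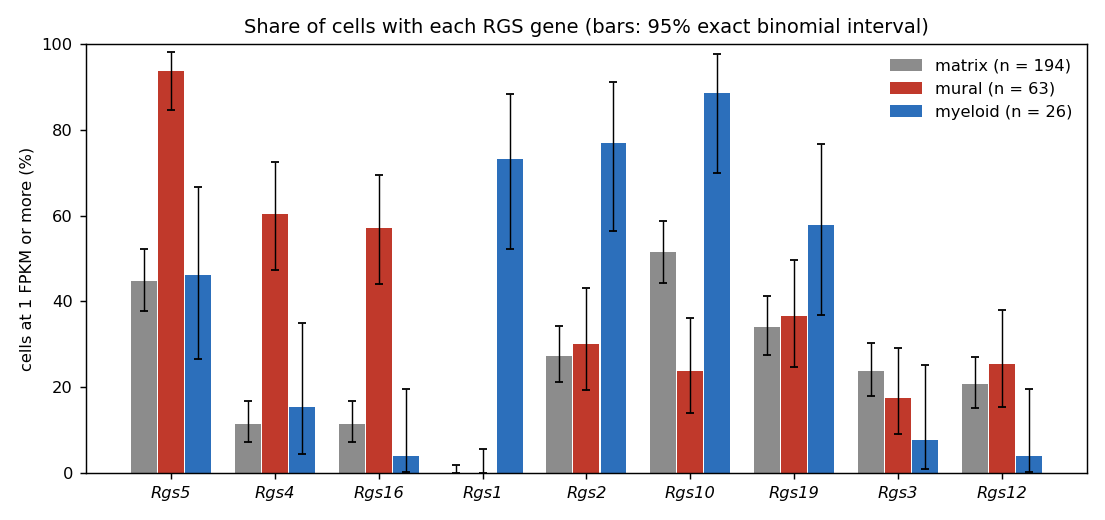
Percent of the kept cells of each kind with at least 1 FPKM of each RGS gene, with exact 95% binomial intervals that cover counting error only. Rgs5 reaches 93.7% of mural cells, Rgs1 73.1% of myeloid cells and 0% of the other kinds, and Rgs10 88.5% of myeloid cells.

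Rgs19, which acts on Gi alpha subunits, was found in each kind. Its means were 16.5 to 62.7 FPKM in matrix (median 40.9), 12.4 to 82 in mural (median 52.5) and 67.2 to 341 in myeloid cells (median 137). The myeloid captures overlapped with mural ones but were above the matrix ones. The difference between myeloid and matrix cells, 1.97 ± 0.77, did not pass (limma, adjusted p = 0.0998), and mural minus matrix cells gave 0.21 ± 0.65 (limma, adjusted p = 0.960). It was detected in 68 of 194 matrix, 24 of 63 mural and 16 of 26 myeloid cells.

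Rgs3 and Rgs12, the longest of these genes, were low in all kinds. Rgs3 had means of 1.31 to 21.8 FPKM in matrix cells (median 6.53) and 0 to 5.52 in mural cells (median 0.400). In the captures with at least 3 myeloid cells its means were 0 to 1.97. Of all myeloid cells, 2 of 26 had any, with 7.63 FPKM in the 1 myeloid cell of capture 3 of day 12. The differences were -2.03 ± 0.64 for mural minus matrix cells (limma, adjusted p = 0.214) and -2.35 ± 0.75 for myeloid minus matrix cells (limma, adjusted p = 0.05004, just above the threshold). Rgs12, which has PDZ and Ras-binding domains beside its RGS domain, had means of 0.989 to 21.6 FPKM in matrix and 2.28 to 38.5 in mural cells and was seen in 56 of 194 and 22 of 63 cells. In myeloid cells it was above 0 in 1 of 26, a cell of capture 2 of day 12 with 52.4 FPKM. It was lower in myeloid than in matrix cells by -2.47 ± 0.75 (limma, adjusted p = 0.0411) and higher in mural than in myeloid cells by 2.96 ± 0.80 (limma, adjusted p = 0.0359). The first call was kept without capture 2 or 3 of day 12 only and the second without capture 2 of day 12 only, with adjusted p-values of up to 0.174 and 0.169 when other captures were left out. With no filter on low values both calls were lost (limma, adjusted p = 0.0639 and 0.0619). Over all alternative settings the first passed in 7 of 20 and the second in 8 of 20.

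Over the members, myeloid minus matrix cells gave 3 of 9 higher (Rgs1, Rgs2 and Rgs10), beside 3.06% of all genes, and 1 of 9 lower (Rgs12), beside 11.1%. The median difference was -0.27 for the members and -0.83 for all genes. Mural minus myeloid cells gave 4 of 9 higher (Rgs4, Rgs5, Rgs12 and Rgs16), beside 5.3%, and 2 of 9 lower (Rgs1 and Rgs10), beside 2.56%, with medians of 0.33 and 0.52. The 3 comparisons share their profiles and are not independent. Rgs1 passed the filter on low values only through its myeloid captures and Rgs16 only through its mural captures. The calls of Rgs2, Rgs4, Rgs12 and Rgs16 were each lost with some captures left out. The members were chosen with earlier results of these data known, so these counts are a description. The median number of members at 10 FPKM or more was 1 in a matrix cell, 3 in a mural cell and 3 in a myeloid cell, and 46 of 194 matrix, 3 of 63 mural and 0 of 26 myeloid cells had none. The median estimated depth was 1414410 fragments in matrix, 1411750 in mural and 2105440 in myeloid cells, and the part of depth in the myeloid shares was not tested.

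**Figure D4:**
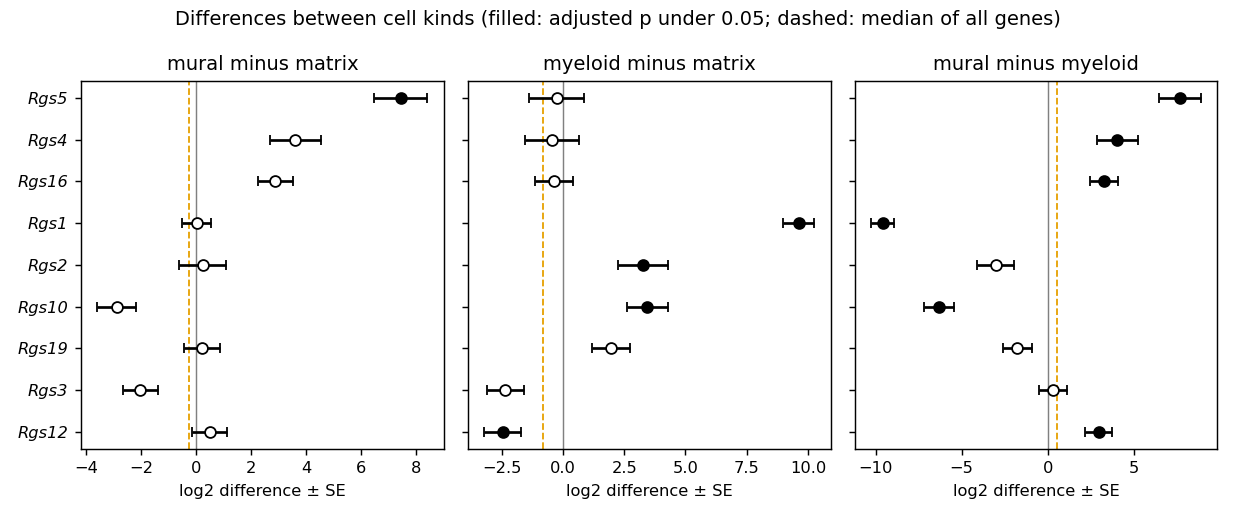
Differences of log2(mean FPKM + 1) between cell kinds for the 9 RGS genes, as limma estimates ± SE. Filled points passed an adjusted p of 0.05 and dashed lines are the medians over all genes (-0.26, -0.83 and 0.52), with Rgs5 highest against both kinds in mural cells and Rgs1 in myeloid cells.

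Time after wounding was compared within matrix cells, which all 7 captures held. None of the members passed, beside 0% of the 13565 genes tested in each pair of days by limma, where 762, 908 and 719 genes had an unadjusted p under 0.05 for day 15 minus 12, day 21 minus 12 and day 21 minus 15. Rgs1 and Rgs16 were under the filter there. The widest differences were those of Rgs4 and Rgs5 for day 15 minus day 12, at -2.99 ± 1.23 (limma, adjusted p = 0.848) and -2.97 ± 1.78 (limma, adjusted p = 0.890). The 5 matrix cells named above enter the means of Rgs5 in 4 of the 7 captures, and the median matrix cell had 1.40, 0 and 4.88 FPKM in the captures of day 12, 1.65 and 0 in those of day 15 and 2.42 and 0 in those of day 21. Rgs10 in matrix cells was 65.2, 105 and 80.6 FPKM at day 12, 39 and 140 at day 15 and 41.7 and 49.3 at day 21, and Rgs2 was 8.51, 49.1 and 17.9 at day 12, 6.26 and 16.2 at day 15 and 8.63 and 33.3 at day 21, with days overlapping for both.

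Whether the mural minus matrix difference changed between day 12 and the later days was tested over the 6 captures with both kinds. Of 13836 genes, 0% passed by limma and 728 had an unadjusted p under 0.05. Rgs5 in mural cells had means of 6520 to 7149 FPKM at day 12, and of 7076, 5171 and 140 later. Among mural cells with 2 or 3 of the rule's genes its median by capture was 6938, 8549 and 7608 FPKM at day 12, 6904 in capture 1 of day 15 and 4359 in capture 1 of day 21, with 420 in the 1 such cell of capture 2.

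Of 14 other RGS genes and partners in a list, 12 were above 0 in at least 1 kept cell and 2 passed the filter on low values. Rgs9 was above 0 in 104 of 292 cells, but at no more than 4.30 FPKM, and Rgs13 and Rgs21 were above 0 in none. Rgs18, a member of platelets and myeloid cells, was above 0 in 7 of 26 myeloid cells, 1 of 194 matrix cells and 0 of 63 mural cells, with means of 0 to 97.2 FPKM in the myeloid captures and at most 0.0719 in matrix cells. It passed the filter only through its myeloid values, so no test is given. No mural minus matrix difference passed in this list.

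The proteins that RGS proteins act with were listed with earlier results of these data known. Their calls are set beside the shares of all genes tested, of which 0.278% were higher and 0.135% lower in mural than in matrix cells and 3.06% higher and 11.1% lower in myeloid than in matrix cells. Of 12 tested G alpha subunits, none differed between mural and matrix cells, and in myeloid cells 0 were higher and 2 lower than in matrix cells, Gnas (-3.61, limma, adjusted p = 0.00854) and Gnai1 (-2.44, limma, adjusted p = 0.0436). Gnai2, the Gi subunit that Rgs1, Rgs5 and Rgs16 act on, was detected in 192 of 194 matrix, 61 of 63 mural and 25 of 26 myeloid cells. Of 11 tested beta and gamma subunits, Gngt2 was higher in mural than in matrix cells (3.78, limma, adjusted p = 0.0227), and in myeloid cells 2 were higher (Gngt2 and Gng5) and 3 lower (Gnb4, Gng11 and Gnb5).

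Among 23 tested receptors for vasoactive substances and lipids, none was lower in mural than in matrix cells. Ednrb, an endothelin receptor, was higher (3.92, limma, adjusted p = 0.0485). Its capture means were at most 1.46 FPKM in matrix, 0.167 in myeloid and 111 in mural cells. Ednrb thus passed the filter on low values only through its mural captures, so this call is a description. It was above 0 in 17 of 63 mural, 15 of 194 matrix and 5 of 26 myeloid cells. In myeloid cells 3 of the 23 were higher than in matrix cells, the purinergic receptors P2ry12 (5.93), P2ry6 (3.20) and P2ry13 (3.16), and 2 of 23 were lower, beside 11.1% of all genes, Lpar1 (-4.57) and F2r (-3.29). Of 13 tested chemoattractant receptors, none passed between mural and matrix cells, while in myeloid cells 6 were higher and 1, Ackr3, lower. The largest of these were the complement receptors C3ar1 (7.12, limma, adjusted p = 9.52e-06) and C5ar1 (6.39, limma, adjusted p = 1.61e-05), followed by Ccr1 (5.32) and Cx3cr1 (4.71). Genes near 0 in matrix and mural cells, such as C5ar1 and Ccr1, passed the filter on low values only through myeloid cells, so these counts of higher receptors are a description.

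A list of effectors of Gi, Gq and G12/13 also held genes of nitric oxide and calcium signals. Of its 20 tested genes, 1 was higher in mural than in matrix cells, Gucy1a1, a subunit of the guanylate cyclase that nitric oxide activates and not an effector of these G proteins. It was higher by 4.96 (limma, adjusted p = 0.0305). It was above 0 in 58 of 63 mural, 51 of 194 matrix and 8 of 26 myeloid cells. In myeloid cells 4 of the 20 were lower than in matrix cells (Arhgef12, Plcb4, Adcy2 and Plcb1), beside 11.1% of all genes, and none was higher. Of 7 tested receptor kinases and arrestins, Grk2, a kinase that turns off activated receptors, was higher in myeloid cells (5.41, limma, adjusted p = 0.00151) and none differed between mural and matrix cells.

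The genes whose pattern over the 17 profiles was most like a member were named by Pearson's r of log2(mean FPKM + 1). For Rgs5 they were Synpo2, Tinagl1 and Gucy1a1 (0.95, 0.95 and 0.95). For Rgs16 they were Sncg, Apold1 and Ano1 (0.96, 0.96 and 0.96), and for Rgs4 Kif3c, Des and Mustn1 (0.93, 0.91 and 0.90). For Rgs1 Ly86 and Osm followed Ptprc (1.00 and 1.00). The closest gene was Grb2 for Rgs2 (0.86), Ehd4 for Rgs10 (0.87), Cdh13 for Rgs3 (0.88), Tbc1d9b for Rgs12 (0.91) and Srgap2 for Rgs19 (0.83). Profiles of 1 capture share its depth, and the difference between kinds alone gives high values.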

How the data were processed

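The authors aligned paired-end reads to mm10 with Bowtie 1.0.0 and computed expression with RSEM on GENCODE M13, per the labels and the methods of the study. The deposited values are FPKM per gene and cell. Of 50600 identifiers 50376 had a record in GENCODE M21, from which symbols and positions were taken, and 224 had none.

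Fragments per cell were estimated from the steps between FPKM values of single-transcript genes, with an assumed fragment length of 300 bp, and checked on 92 simulated cells (median of estimated over true 1.02). Cells were kept with at least 159000 fragments, at most 11000 genes and at most 15% mitochondrial FPKM. FPKM hold no counts, so shares could not be thinned to 1 depth, and intervals and the floor of 3 cells cover counting error only. The authors checked chip wells under the microscope and left out those with more than 1 cell. No further doublet calling was done, and cells with RNA of several kinds stayed in.

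A capture was the replicate. The cells of each kind were averaged per capture (at least 3 cells), and log2(mean FPKM + 1) was fitted for genes that averaged 1 FPKM or more with limma 3.58.1 (R 4.3.3), with a variance trend (none for the day by kind difference) and, between kinds, capture as a block. Tests are two-sided, and p-values were adjusted over all genes tested by Benjamini and Hochberg, with 0.05 as threshold. Fold changes of low genes are understated on this scale. The scripts were tested on simulated data. Members, cell kinds and gene lists were chosen with earlier results of these data known. All members are named. From other lists at most 4 genes per direction are named by size, and the 3 genes with the highest Pearson's r are those most like a member. Capture numbers were not taken to pair captures of different days, since no label says so. The droplet-based cells of the study were not analysed here.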

Additional observations from a re-analysis of the deposited data

Results flagged for a closer look

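In 26 tests of a lowest or highest capture among 4 to 7 captures, on the log2(mean FPKM + 1) scale by Dixon's criterion, 3 passed, and chance flags about 1 in 20. The mean of Rgs5 in the 3 mural cells of capture 2 of day 21 was 140 FPKM, with 5171 in the next capture. The mean of Rgs3 in the myeloid cells of capture 2 of day 12 was 1.97 FPKM and that of Rgs12 was 4.76 FPKM. Both came from 1 cell of 11, with 0 in the other captures with at least 3 myeloid cells. Where all other captures are at 0, any value above 0 passes. The flags of Rgs3 and Rgs12 were thus fixed by the zeros, and the rate of 1 in 20 does not hold for them.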

How the results depend on the processing

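The counts of all genes called between kinds depend on the settings, and the cause was not tested. Mural minus matrix cells gave 58 genes, with 105 for all cells, 14 and 26 for pseudocounts of 0.1 and 10, 9 with no filter on low values, 131 for the mean of log2 over cells, 136 with doubled limits of the kinds, 99 with no capture block, 145 with 2 or 3 of the rule's genes (chosen after seeing the data) and 8 to 115 with a capture left out (115 without capture 2 of day 21). Myeloid minus matrix cells gave 1992, with 1020 for a pseudocount of 10, 1117 with no filter, 857 with at least 5 cells, 89 with only these kinds in the fit and 1083 to 1769 with a capture left out. Mural minus myeloid cells gave 1104, with 677 for a pseudocount of 10, 581 with no filter, 1761 with no capture block, 0 with only these kinds in the fit (only 3 captures hold both) and 626 to 1117 with a capture left out. For days in matrix cells, 0 genes became 15 (day 15 minus 12) and 37 (day 21 minus 12) for the mean of log2 over cells, and for day 21 minus 12 also 1 with halved limits and 0 to 2 with a capture left out.

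Of the members, Rgs1 in myeloid against matrix cells passed in all 20 alternatives (6.33 to 12.84) and Rgs5 in mural against matrix cells in 18 of 20 (6.54 to 8.33). Rgs5 did not pass with no filter (7.44) and ranged from 7.04 to 7.90 with a capture left out. Against myeloid cells it did not pass with only these kinds in the fit (7.72). Rgs10 in myeloid against matrix cells did not pass with at least 5 cells (3.74) or only these kinds (2.73), and ranged from 3.26 to 3.82 with a capture left out. Rgs2 there did not pass for a pseudocount of 0.1 (3.54), no filter (3.26), cells scaled to equal totals (2.96), at least 5 cells (2.69) or only these kinds (2.93), and ranged from 2.87 to 3.77 with a capture left out. Rgs12 in myeloid against matrix cells passed in 7 of 20 alternatives. In mural against myeloid cells Rgs4 passed in 10 of 20, Rgs12 in 8 of 20 and Rgs16 in 15 of 20.

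The direction turned only for values that passed in no setting. For mural minus matrix cells, Rgs1 went from 0.02 to -0.06 (pseudocount 0.1), -0.11 (doubled limits), -0.01 (at least 5 cells), -0.01 (no capture block) and -0.11 (2 or 3 of the rule's genes), Rgs2 to -0.28 (pseudocount 0.1), Rgs12 to -0.18 and Rgs19 to -1.56 (doubled limits), and Rgs19 to -0.08 (at least 5 cells) and -0.0004 (2 or 3 of the rule's genes). With a capture left out they ranged from -0.02 to 0.06 (Rgs1), -0.22 to 1.30 (Rgs2) and -0.03 to 0.68 (Rgs19). For myeloid minus matrix cells, Rgs4 turned to 0.34 (mean of log2) and 0.21 (halved limits) and Rgs5 to 0.34 (all cells), 0.28 (pseudocount 0.1), 0.91 (mean of log2) and 0.95 (halved limits), with ranges of -0.73 to 0.21 (Rgs4), -1.41 to 1.27 (Rgs5) and -0.78 to 0.01 (Rgs16) when a capture was left out. For mural minus myeloid cells Rgs3 turned to -0.37 (doubled limits) and ranged from -0.58 to 0.93. Of 522 member values between days and settings, 64 changed sign and none passed.

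With capture number as a replicate block across days, 0 genes passed in each pair of days, as without it, and Rgs4 for day 15 minus day 12 was -4.10. Deviations of same-numbered captures correlated at -0.00464 to 0.0205. Depth limits low genes, and small profiles limit the myeloid and the day 21 mural values.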

Other observations

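The highest Rgs16 value of the 292 kept cells, 358 FPKM, was in a cell with no kind, of capture 1 of day 15, which also held Rgs5 at 6288 and Acta2 at 3733 FPKM and of the rule's mural genes only Ndufa4l2, at 1.37 FPKM. Of the other cells with no kind, 2 of capture 1 of day 21 held Rgs16 at 151 and 19.4 FPKM with Rgs5 at 5.79 and 4.11 FPKM and Rgs4 at 0. A further cell, of capture 2 of day 15, held Rgs5 at 5056 and Rgs4 at 626 FPKM, with Cox4i2 at 78 and Notch3 at 30.2 FPKM, in a capture with no mural cell by the rule.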
